A study of Homo sapiens with 9 samples.

Results

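RNA sequencing of cells labelled Huh7 was read here as 1 comparison: all libraries in which KDM4C was silenced against all control libraries. The 6 knockdown libraries, 3 transfected with Si-KDM4C#1 and 3 with Si-KDM4C#2, were set against 3 libraries from cells transfected with Scramble siRNA. A gene entered the account when its values in all 6 knockdown libraries lay above, or all lay below, its values in all 3 Scramble libraries, and when its mean reached 1 FPKM in at least 1 of the 3 groups. FPKM is a count of sequenced fragments scaled by exon length and by the depth of the library. Of 32906 listed genes, 14363 reached that mean, and 5489 of these met the rule: 2978 genes with the knockdown libraries higher and 2511 with the knockdown libraries lower. These are called separated genes below. They made up 20.7% and 17.5% of the genes tested, and since the rule is set on the values themselves, their number is a description and not a test.

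The cell line Huh7 comes from a human hepatocellular carcinoma. Cells carried no other modification in the labels and were collected 48 hours after transfection. The labels name no difference between the groups other than the siRNA. Nothing in the labels says whether the 3 libraries of a group came from separate cultures, so the p-values measure the spread between libraries, which may in part be technical. Depth, as recovered from the values, ran from 14597503 to 18058556 fragments per library, and no pair of libraries of 1 group agreed within sampling noise (their chi-square over genes was 2.67 to 6.31 times its degrees of freedom). In bulk RNA, fewer cells of a type and less RNA per cell cannot be told apart.

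KDM4C is a histone lysine demethylase that removes methyl groups from H3K9 and H3K36. Methylation of H3K9 is known as a mark of silent chromatin, and methylation of H3K36 as a mark of transcribed gene bodies. A small interfering RNA (siRNA) guides cleavage of the mRNA that it matches over its whole length, and it can also lower mRNAs that match only its seed, the bases 2 to 8 of its guide strand. For this reason studies use 2 siRNAs of different sequence against 1 target, and the genes that move the same way with both are the ones described here.

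The labelled cell type was checked against defining mRNAs. Of 22 genes typical of hepatocytes, 17 were listed, and 16 of these stayed under 1 FPKM in every library. AFP, the fetal albumin-like protein of the liver, reached at most 0.0203 FPKM, and HNF4A, the regulator of hepatocyte identity, at most 0.128 FPKM. CPS1, the first enzyme of the urea cycle, was the exception, at 196.0 to 302 FPKM. The name Huh7 is therefore given as the labels state it. Some keratins were abundant, with KRT8 at 134.7 to 205 FPKM, but 14 of 22 listed keratins stayed under 1 FPKM in every library. So did 6 of 11 listed epithelial markers, among them KRT19 and CDH1, the latter at or under 0.0322 FPKM. Of 11 listed fibroblast genes, 6 were under 1 FPKM throughout, while COL3A1 was at 26.2 to 56.3 FPKM and COL1A1 at 14.3 to 17.9 FPKM. Of 11 listed neural and melanocyte genes, 7 were under 1 FPKM throughout, while MITF was at 9.199 to 12.94 FPKM. All 8 listed blood and immune genes were under 1 FPKM in every library (summed level 0.297 to 0.538 FPKM with Scramble and 0.449 to 1.01 FPKM in the knockdown libraries). The summed hepatocyte list, nearly all of it CPS1, was at 272 to 303 FPKM with Scramble and 197 to 249 FPKM in the knockdown libraries. The part of these marker levels in the results below was not tested.

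KDM4C itself (ENSG00000107077) was among the 15 genes with the widest lower gap. It stood at 4.88, 4.63 and 4.57 FPKM in the Scramble libraries, 1.18, 1.10 and 1.13 FPKM after Si-KDM4C#1 and 0.256, 0.349 and 0.256 FPKM after Si-KDM4C#2. Every knockdown library was below every Scramble library, and the Si-KDM4C#2 libraries were the lowest. The log2 fold change of both siRNAs together, on the log2(FPKM + 1) scale used throughout, was -1.78 (standard error 0.0662). It rested on 2329 fragments over the 3 Scramble libraries and 716 over the 6 knockdown libraries. Taken singly, Si-KDM4C#1 gave -1.41 and Si-KDM4C#2 gave -2.15, and the siRNAs differed by -0.73 (limma-trend, adjusted p = 2.4e-05 after the Benjamini-Hochberg method).

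The gap, the distance on the log2(FPKM + 1) scale from the nearest knockdown to the nearest Scramble library, measured how far apart the groups stood. Among separated genes its median was 0.225 where the knockdown was higher and 0.189 where it was lower. A gap over 1 was found for 87 genes with the knockdown higher and for 31 with the knockdown lower. Most separated genes had moved little. The median log2 fold change was 0.54 among the genes with the knockdown higher, and only 5% of them were over 1.23. Among the genes with the knockdown lower it was -0.52, and 5% were under -1.18.

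A gene was called where limma-trend gave a Benjamini-Hochberg false discovery rate (FDR) under 0.05 and a fold change over 2. By this rule 313 genes (2.18% of those tested) were higher in the contrast of both siRNAs with Scramble and 281 (1.96%) were lower. After a correction of every library for GC content the split was 208 higher and 283 lower, and with limma voom on the recovered fragments it was 746 higher and 1063 lower. Of the called genes, 304 higher and 255 lower ones were also separated, which is 10.2% of the separated genes in each direction. At FDR alone, 2959 of the 2978 separated higher genes and 2481 of the 2511 separated lower genes were under 0.05. Over all 14363 genes tested, 4683 higher and 4418 lower ones were. The rule and the contrast use the same values, so these overlaps are built in and are a description only.

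**Figure D1:**
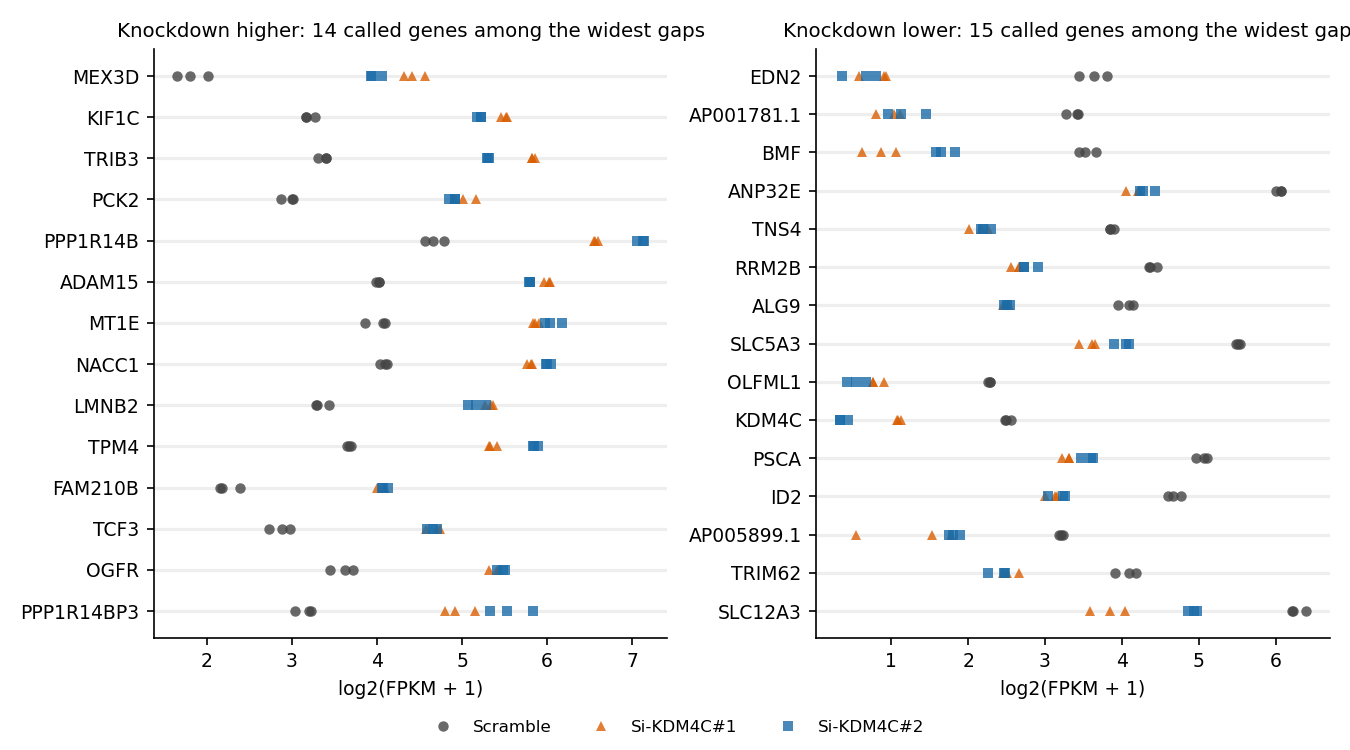
Level of 14 called higher genes (left) and 15 called lower genes (right) among those with the widest gaps between knockdown and Scramble, on a log2(FPKM + 1) axis, with 1 point per library. Grey circles are Scramble, orange triangles Si-KDM4C#1 and blue squares Si-KDM4C#2; the 6 knockdown points of each gene lie on 1 side of the 3 Scramble points, by gaps of 1.58 to 1.92 on the left and 1.24 to 2.51 on the right.

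In the higher direction the widest gaps were held by MEX3D, KIF1C and TRIB3. For MEX3D, an RNA-binding protein of the MEX3 family (ENSG00000181588, GRCh38 chromosome 19, 1554669 to 1568058, minus strand), the values were 2.14, 2.47 and 3.03 FPKM in the Scramble libraries, 18.9, 20.3 and 22.7 FPKM after Si-KDM4C#1 and 15.7, 14.4 and 14.3 FPKM after Si-KDM4C#2. The highest Scramble library was far under the lowest knockdown library, and the mean FPKM of the knockdown libraries was 6.96 times that of Scramble, with a log2 fold change of 2.39 (standard error 0.0821). KIF1C, a kinesin motor that carries vesicles along microtubules (chromosome 17, 4997948 to 5028401, plus strand), was at 7.94, 7.97 and 8.67 FPKM in the Scramble libraries, 45.2, 44.7 and 42.8 FPKM after Si-KDM4C#1 and 36.3, 36.5 and 35.1 FPKM after Si-KDM4C#2. Its log2 fold change was 2.15 (standard error 0.0369). For PPP1R14B, an inhibitor of protein phosphatase 1, the libraries read 24.3, 22.6 and 26.5 FPKM in the Scramble libraries, 93.7, 93.0 and 95.7 FPKM after Si-KDM4C#1 and 140.2, 133 and 139 FPKM after Si-KDM4C#2, with the Si-KDM4C#2 libraries the highest. Its processed pseudogene PPP1R14BP3 was also in this group (log2 fold change 2.11), and the authors' counting could have split fragments between them, so both values are uncertain in that respect.

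The next genes show the range of this group. ADAM15, a membrane-bound metalloproteinase, stood at 15.3, 15.2 and 14.9 FPKM in the Scramble libraries, 64.7, 61.5 and 64.1 FPKM after Si-KDM4C#1 and 54.5, 54.9 and 54.1 FPKM after Si-KDM4C#2. LMNB2, a lamin of the nuclear envelope, had 9.80, 8.76 and 8.83 FPKM in the Scramble libraries, 37.7, 39.7 and 40.04 FPKM after Si-KDM4C#1 and 37.96, 32.6 and 34.8 FPKM after Si-KDM4C#2. TCF3, a basic helix-loop-helix transcription factor of the E protein class, was at 6.85, 5.61 and 6.36 FPKM in the Scramble libraries, 25.1, 22.9 and 25.8 FPKM after Si-KDM4C#1 and 25.1, 23.1 and 24.4 FPKM after Si-KDM4C#2. In all 3 genes each knockdown library was over 3 times each Scramble library, and the siRNAs differed by -0.21, -0.15 and -0.02 on the log2 scale. TPM4, a tropomyosin of the actin cytoskeleton, had a log2 fold change of 1.93, and MT1E, a metal-binding metallothionein, of 1.96. MT1E has near-identical paralogs among which fragments could have been split. FAM210B, OGFR and NACC1 (log2 fold changes 1.83, 1.83 and 1.82) belonged to it too, as did TRIB3 and PCK2, which are described with the amino acid response. Of the 14 genes given here, 5 lie on chromosome 19. So do 42 of the 313 genes called higher and 904 of the 14363 genes tested.

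Among lower genes, EDN2, which encodes the vasoconstrictor peptide endothelin 2 (ENSG00000127129, GRCh38 chromosome 1, 41478775 to 41484673, minus strand), had the widest gap of all separated genes, at 2.51. Its values were 11.4, 9.86 and 13.0 FPKM in the Scramble libraries, 0.912, 0.878 and 0.494 FPKM after Si-KDM4C#1 and 0.590, 0.745 and 0.286 FPKM after Si-KDM4C#2. The Scramble mean was 17.5 times the knockdown mean, on 903 fragments over the 3 Scramble libraries and 103 over the 6 knockdown libraries, and the log2 fold change was -2.92 (standard error 0.126). BMF, a BH3-only protein that promotes apoptosis (chromosome 15, 40087890 to 40108892, minus strand), was at 10.47, 11.7 and 9.86 FPKM in the Scramble libraries, 0.823, 1.08 and 0.537 FPKM after Si-KDM4C#1 and 1.99, 2.56 and 2.12 FPKM after Si-KDM4C#2. The Si-KDM4C#1 libraries were the lowest, and the log2 fold change was -2.28 (standard error 0.102). ANP32E, a chaperone that removes the histone variant H2A.Z from chromatin, fell from 65.0 ± 1.68 FPKM (SD, n = 3) in Scramble libraries to 17.0 ± 1.13 FPKM after Si-KDM4C#1 and 18.95 ± 1.45 FPKM after Si-KDM4C#2.

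TNS4, a tensin of focal adhesions, was at 13.97, 13.4 and 13.3 FPKM in the Scramble libraries, 3.79, 3.02 and 3.49 FPKM after Si-KDM4C#1 and 3.47, 3.90 and 3.59 FPKM after Si-KDM4C#2. ID2, which binds and blocks E proteins such as TCF3, was at 23.2, 26.3 and 24.5 FPKM in the Scramble libraries, 7.73, 6.99 and 7.90 FPKM after Si-KDM4C#1 and 7.26, 8.60 and 8.43 FPKM after Si-KDM4C#2. For both genes the libraries of the 2 siRNAs overlapped. RRM2B, a ribonucleotide reductase subunit known as a p53 target, had a log2 fold change of -1.69, SLC5A3, the inositol transporter, of -1.72, TRIM62, a ubiquitin ligase, of -1.59, PSCA, a surface antigen, of -1.62, and OLFML1 of -1.60. SLC12A3, a sodium chloride cotransporter, was at -1.91. ALG9, a mannosyltransferase of N-glycan synthesis, had -1.56 and the lincRNA AP001781.1 -2.28: the 2 genes lie on the same strand of chromosome 11, with 3844 bases between them, and whether the counting could assign fragments of one to the other was not tested. AP005899.1, annotated as an antisense RNA, was at -1.65. The strand setting of the counting is not given in the sources used here, so its fragments cannot be told apart from those of a gene on the other strand. Over the 15 genes of each direction, the adjusted p of the pooled contrast ran from 6.06e-10 to 3.11e-07 for higher genes and from 1.61e-08 to 0.000126 for lower genes (limma-trend), values that describe genes chosen on the same contrast.

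The promoters of the leading genes of each direction are printed to show their base composition, which is taken up with the GC content below. Each run covers 250 bases before to 50 bases after the gene start in RefSeq (GRCh38.p14), read 5′ to 3′ on the strand of the gene, and capitals mark the GC box GGGCGGG or its reverse complement. The first pair had higher knockdown values and the second pair lower ones.
MEX3D (chr19:1568276-1568575, minus strand): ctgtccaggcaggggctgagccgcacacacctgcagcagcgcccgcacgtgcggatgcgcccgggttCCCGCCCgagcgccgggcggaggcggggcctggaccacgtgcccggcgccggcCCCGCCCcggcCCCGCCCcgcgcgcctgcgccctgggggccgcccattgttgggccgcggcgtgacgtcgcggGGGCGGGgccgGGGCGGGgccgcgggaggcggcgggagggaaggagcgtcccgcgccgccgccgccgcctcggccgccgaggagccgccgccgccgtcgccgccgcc
KIF1C (chr17:4997700-4997999, plus strand): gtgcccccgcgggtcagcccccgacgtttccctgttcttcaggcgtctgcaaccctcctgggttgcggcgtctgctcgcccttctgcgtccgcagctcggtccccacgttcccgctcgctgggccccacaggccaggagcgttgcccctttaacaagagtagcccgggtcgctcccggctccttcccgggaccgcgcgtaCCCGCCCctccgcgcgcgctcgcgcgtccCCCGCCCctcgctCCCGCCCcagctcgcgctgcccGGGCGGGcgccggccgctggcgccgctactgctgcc
EDN2 (chr1:41484634-41484933, minus strand): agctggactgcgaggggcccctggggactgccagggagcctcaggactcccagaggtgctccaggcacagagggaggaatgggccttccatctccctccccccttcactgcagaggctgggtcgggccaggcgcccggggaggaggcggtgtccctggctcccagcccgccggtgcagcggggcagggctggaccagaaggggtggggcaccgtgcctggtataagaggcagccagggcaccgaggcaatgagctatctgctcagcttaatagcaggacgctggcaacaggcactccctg
BMF (chr15:40108830-40109129, minus strand): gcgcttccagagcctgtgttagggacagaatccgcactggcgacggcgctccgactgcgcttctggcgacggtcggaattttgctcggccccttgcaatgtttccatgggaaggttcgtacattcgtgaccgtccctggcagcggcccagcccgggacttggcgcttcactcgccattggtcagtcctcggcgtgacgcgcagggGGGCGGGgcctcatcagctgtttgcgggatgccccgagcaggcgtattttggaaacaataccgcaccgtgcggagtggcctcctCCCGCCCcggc
GC made up 85.3% of the MEX3D window and 75.7% of the KIF1C window, with 55 and 42 CpG dinucleotides and 5 and 4 matches of the GC box. The EDN2 window was at 68.3% GC with 11 CpG and 0 matches, and that of BMF at 65% with 31 CpG and 2 matches.

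The siRNAs were then compared with each other. The direct comparison of Si-KDM4C#2 with Si-KDM4C#1, which has no Scramble library in it, called 992 of all genes tested (6.91%). Among separated genes it called 165 (3.01%), although the rule already leaves out genes that moved in opposite directions, so a smaller share is built into it. By direction these were 50 of the higher genes (1.68%) and 115 of the lower genes (4.58%). Of the 50, Si-KDM4C#1 had moved 36 further and Si-KDM4C#2 14, and of the 115 the numbers were 92 and 23. At FDR alone, without the fold change limit, the siRNAs differed for 1758 of the higher and 1441 of the lower genes.

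**Figure D2:**
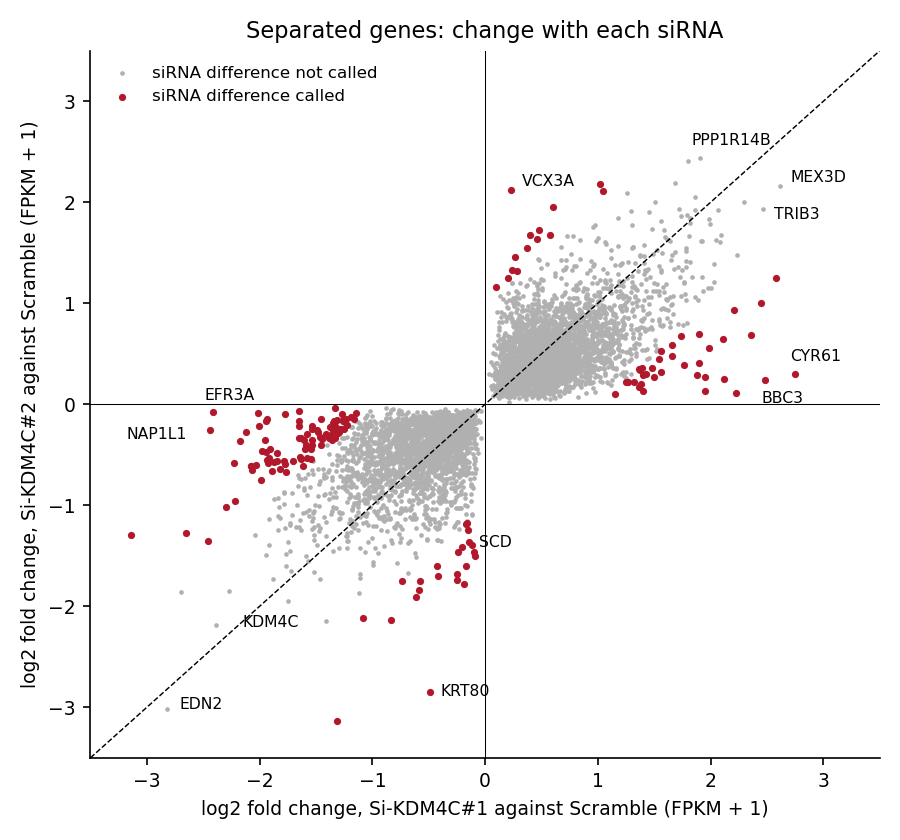
Log2 fold change of the 5489 separated genes with Si-KDM4C#1 (x axis) and Si-KDM4C#2 (y axis), each against the same 3 Scramble libraries, on the log2(FPKM + 1) scale. Grey points are genes without and red points the 165 genes with a called difference between the siRNAs; the dashed line marks equal change, and EDN2 and MEX3D lie near it while CYR61 and KRT80 lie far from it.

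The 304 separated genes called higher had a median log2 fold change of 1.37 after Si-KDM4C#1 and 1.15 after Si-KDM4C#2, and 200 of them had the larger change with Si-KDM4C#1. The 255 called lower had medians of -1.38 and -1.07, and 179 had the larger change with Si-KDM4C#1. Both limits were passed with each siRNA alone by 169 of the 304 and 107 of the 255. These comparisons share the Scramble libraries. KDM4C itself was lower with Si-KDM4C#2, so the order of the siRNAs for the target was the opposite of that for most called genes.

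Some genes stood at nearly the same level with either siRNA. TUBA1C, an alpha-tubulin, was at 27.7, 29.1 and 30.4 FPKM in the Scramble libraries, 83.9, 80.0 and 85.9 FPKM after Si-KDM4C#1 and 85.0, 81.6 and 83.8 FPKM after Si-KDM4C#2, and the siRNAs differed by 0.00 (adjusted p = 0.952, limma-trend). EGLN3, a prolyl hydroxylase that marks the hypoxia-inducible factor for degradation, was at 32.4, 28.6 and 32.2 FPKM in the Scramble libraries, 14.2, 12.8 and 12.8 FPKM after Si-KDM4C#1 and 12.7, 13.7 and 13.6 FPKM after Si-KDM4C#2, with a difference of 0.01 (adjusted p = 0.877, limma-trend). In each case the 2 sets of 3 libraries overlapped, and both were clear of Scramble. FN1, the matrix protein fibronectin, was at 2.61, 2.71 and 3.05 FPKM in the Scramble libraries, 1.01, 0.910 and 0.701 FPKM after Si-KDM4C#1 and 0.935, 0.891 and 0.782 FPKM after Si-KDM4C#2. EHF, an ETS factor of epithelia (log2 fold changes -1.11 and -1.11), EOGT, an O-GlcNAc transferase of secreted proteins (-1.07 and -1.08), FAM109A (1.18 and 1.18) and BRPF1, a scaffold of histone acetyltransferases (1.01 and 1.02), were of the same kind. With the GC adjustment the pooled log2 fold changes of EOGT, FAM109A and BRPF1 were -0.95, 0.87 and 0.85, under the fold change limit, and with quantile normalization that of FN1 was -0.96.

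Other genes met the rule mainly through 1 siRNA. CYR61, a matrix protein and YAP target, was at 10.8, 8.81 and 10.48 FPKM in the Scramble libraries, 65.6, 73.5 and 80.0 FPKM after Si-KDM4C#1 and 12.8, 11.7 and 13.2 FPKM after Si-KDM4C#2. Only the Si-KDM4C#1 libraries were far above Scramble, and the siRNAs differed by -2.45 (adjusted p = 3.14e-08, limma-trend). BBC3, which encodes the proapoptotic PUMA, was at 3.15, 2.91 and 2.07 FPKM in the Scramble libraries, 19.1, 18.3 and 21.6 FPKM after Si-KDM4C#1 and 3.33, 3.44 and 3.30 FPKM after Si-KDM4C#2, with a difference of -2.24. CTGF, another YAP target (1.95 for the first siRNA and 0.27 for the second), SYP (2.12 and 0.25) and UNC13A (2.23 and 0.12), proteins of synaptic vesicles and their release, were of the same pattern. VCX3A went the other way, at 0.23 and 2.12. It rested on 4, 0 and 3 fragments in the Scramble libraries and 8, 4 and 5 after Si-KDM4C#1. Mean levels with Scramble and Si-KDM4C#2 were low for SYP (0.21 and 0.44 FPKM) and UNC13A (0.041 and 0.129 FPKM). Among lower genes, KRT80, a keratin, was at 32.2, 29.2 and 28.9 FPKM in the Scramble libraries, 22.4, 20.2 and 20.8 FPKM after Si-KDM4C#1 and 3.29, 3.46 and 3.19 FPKM after Si-KDM4C#2, and the difference was -2.36 (adjusted p = 5.13e-09, limma-trend). EFR3A, a plasma membrane scaffold, was at 20.8, 21.8 and 20.5 FPKM in the Scramble libraries, 3.35, 3.47 and 2.60 FPKM after Si-KDM4C#1 and 20.4, 19.4 and 19.7 FPKM after Si-KDM4C#2, and NAP1L1, a histone chaperone, at 25.6, 28.0 and 29.9 FPKM in the Scramble libraries, 4.16, 4.43 and 4.28 FPKM after Si-KDM4C#1 and 22.0, 24.0 and 23.3 FPKM after Si-KDM4C#2. For EFR3A and NAP1L1 the Si-KDM4C#2 libraries lay just outside the Scramble range, by gaps of 0.01 and 0.09, while for KRT80 the gap of the Si-KDM4C#1 libraries was 0.35. In a fit that took the 6 knockdown libraries as 1 group, the pooled calls of CYR61, BBC3, CTGF, SYP, UNC13A, VCX3A, KRT80, EFR3A, NAP1L1, ADIPOR1, USP12 and HSP90B1 no longer passed the FDR limit.

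**Figure D3:**
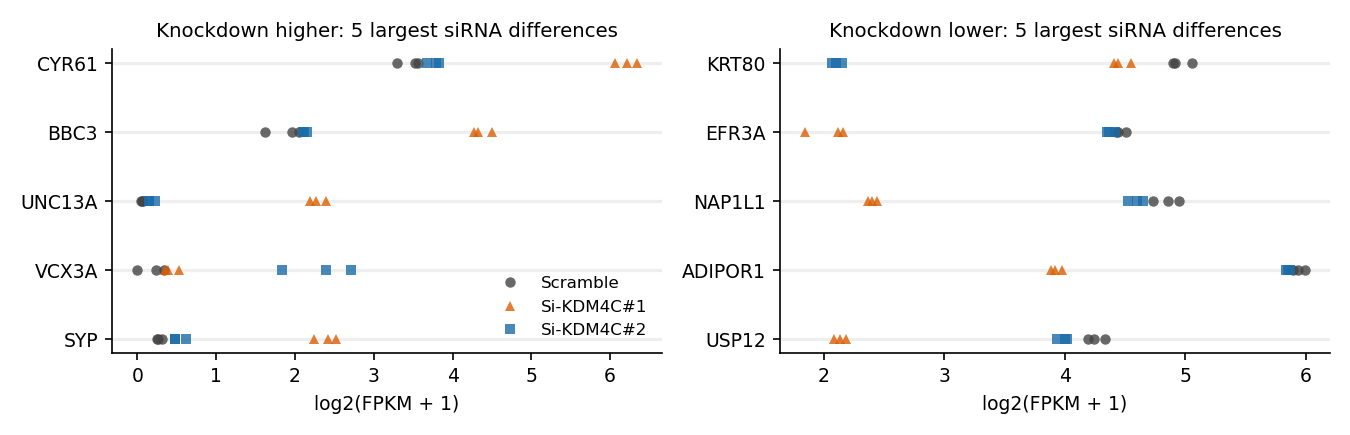
Level of the 5 separated higher (left) and 5 separated lower (right) genes that the siRNAs set furthest apart, on a log2(FPKM + 1) axis with 1 point per library, in the symbols used for the widest gaps. In CYR61, BBC3, UNC13A and SYP the triangles of Si-KDM4C#1 stand alone and the squares of Si-KDM4C#2 lie beside the grey Scramble circles, while in VCX3A and KRT80 the squares stand alone.

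Being called did not require separation. Of the called genes, 9 higher and 26 lower ones were not separated. HMGN5, a nucleosome-binding protein, was at 30.7, 32.7 and 34.2 FPKM with Scramble, 3.805, 3.66 and 3.12 FPKM with Si-KDM4C#1 and 45.3, 48.7 and 51.0 FPKM with Si-KDM4C#2. UQCRB, a subunit of respiratory complex III, was at 19.2, 19.7 and 18.4 FPKM, 1.45, 1.31 and 1.40 FPKM, and 18.4, 18.5 and 18.6 FPKM in the same order. RPS12, HTATSF1 and CPLX1 also carried the pooled call through Si-KDM4C#1, and PSPHP1 through Si-KDM4C#2. These 6 genes were picked after their values were seen. In each, the pooled contrast averaged 1 siRNA that moved the gene and 1 that left it near or past Scramble in the other direction. Further unseparated calls, also picked after their values were seen, had the same pattern. Among them were AIDA (-2.22 with Si-KDM4C#1 and 0.03 with Si-KDM4C#2), MMP24 (2.43 and -0.01) and VGF (2.07 and 0.14). Some unseparated calls, many of them entries for small RNAs, were not of this kind. RNU6-126P had log2 fold changes of -1.34 with Si-KDM4C#1 and -1.41 with Si-KDM4C#2. Its value in Si-KDM4C#1 replicate 1, 13.4 FPKM, lay among the Scramble values of 13.5, 11.6 and 14.7 FPKM.

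The edge of the rule is described by its nearest members. TMED4, VEGFA and SPG7 were separated by gaps of only 2.66e-05, 0.000147 and 0.000228. By level, the nearest members inside were RNU6-733P, SLC16A8 and LIPE, whose highest group means were 1.0002, 1.0045 and 1.0046 FPKM. The nearest below 1 FPKM were TMEM86A, AL592148.1 and KIAA1024, at 0.996, 0.994 and 0.993 FPKM, and 944 genes under the mean of 1 FPKM were separated as well. RNU6-421P and 2 genes listed as RF00019 had the nearest knockdown and Scramble values tied, and are outside.

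**Figure D4:**
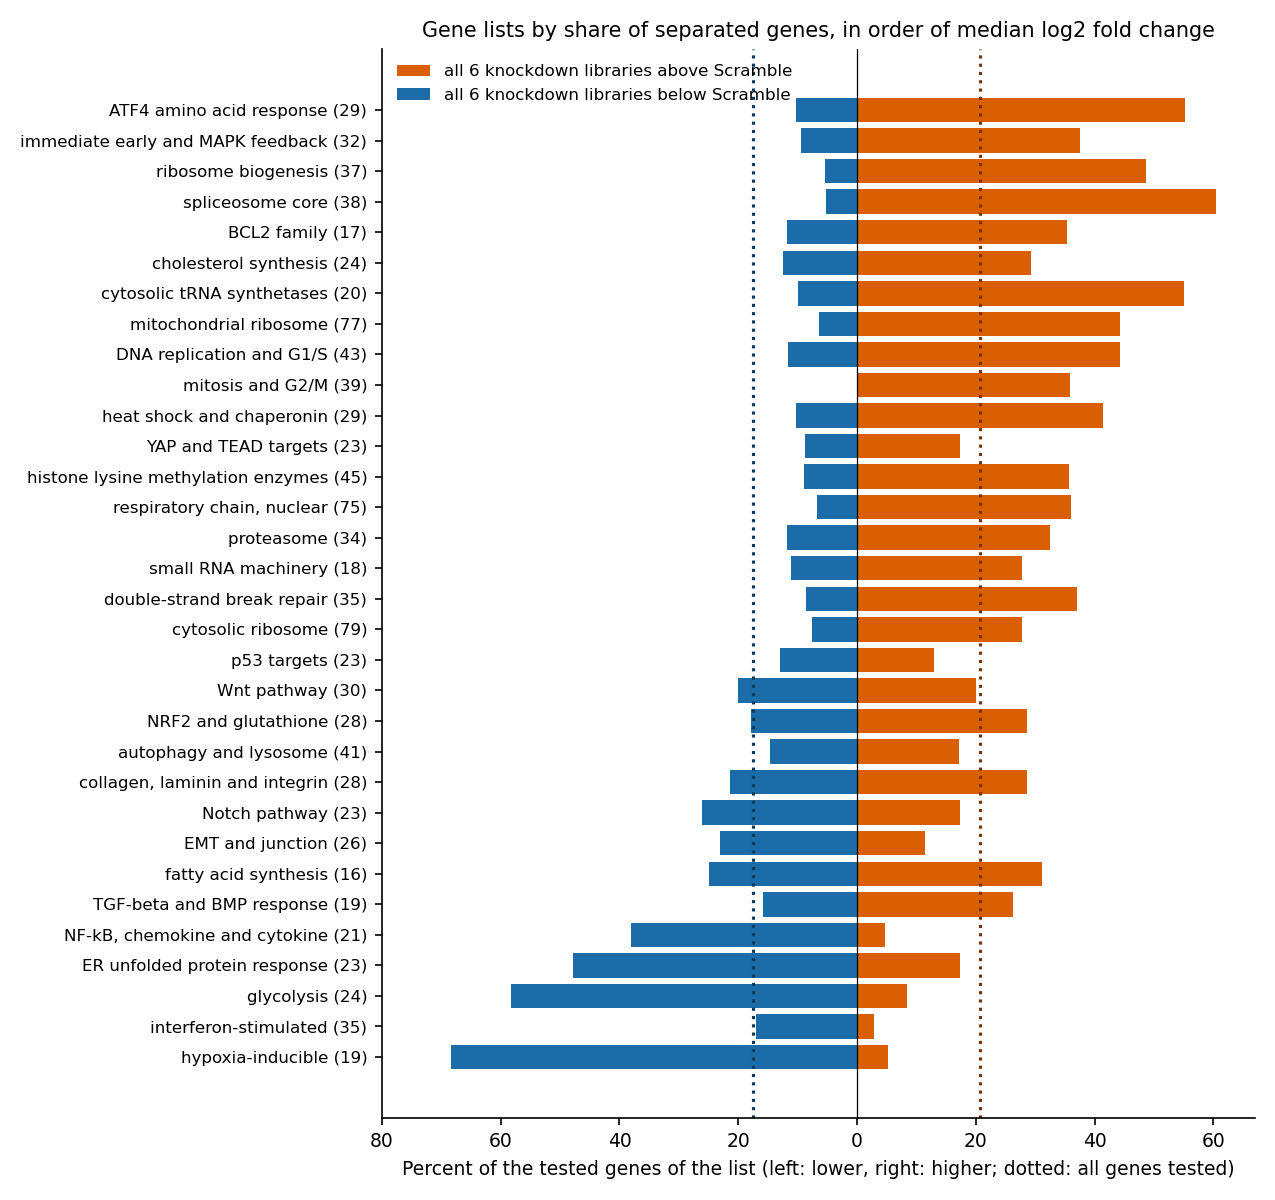
Share of the tested genes of each list (number in brackets) whose 6 knockdown values lay all above (orange, right) or all below (blue, left) the 3 Scramble values, in percent, for lists with at least 15 tested genes, ordered by median log2 fold change. Dotted lines mark the shares among all genes tested, 20.7% and 17.5%; the amino acid response and spliceosome lists reach furthest to the right and the hypoxia-inducible and glycolysis lists furthest to the left.

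The counts of each list below stand beside those of all genes tested. Of these, 20.7% were separated higher, 17.5% were separated lower and 6.91% had a called difference between the siRNAs. Genes of the amino acid response, which the transcription factor ATF4 switches on when amino acids are short, were the list with the highest median. Of 29 tested members 16 (55.2%) were separated with higher and 3 with lower knockdown values, 11 were called higher and 0 lower, and the median log2 fold change was 0.56 against 0.01 over all genes. TRIB3, a pseudokinase that restrains ATF4, was at 9.59, 8.90 and 9.57 FPKM in the Scramble libraries, 55.7, 55.7 and 57.2 FPKM after Si-KDM4C#1 and 38.8, 38.4 and 38.5 FPKM after Si-KDM4C#2. PCK2, the mitochondrial phosphoenolpyruvate carboxykinase, was at 7.005, 6.32 and 7.08 FPKM in the Scramble libraries, 34.9, 28.9 and 31.3 FPKM after Si-KDM4C#1 and 29.1, 29.1 and 27.7 FPKM after Si-KDM4C#2. For PSAT1, an enzyme of serine synthesis, the values were 48.0, 45.7 and 47.1 FPKM in the Scramble libraries, 203, 200.2 and 204 FPKM after Si-KDM4C#1 and 140.3, 151 and 143 FPKM after Si-KDM4C#2. All 6 knockdown libraries of these genes were over 2 times every Scramble library. NUPR1, a stress-induced chromatin protein, had a log2 fold change of 1.84, SLC7A11, the cystine transporter, of 1.44 and PHGDH, the first enzyme of serine synthesis, of 1.25. The siRNAs differed in size over this list: its median was 1.01 for Si-KDM4C#1 and 0.22 for Si-KDM4C#2, and 5 members had a called difference. ATF4 mRNA, chosen after its values were seen, had log2 fold changes of 1.35 and 1.03. VLDLR (-0.79), SLC38A2 (-0.23) and XPOT (-0.28) were the separated members in the other direction. Cytosolic aminoacyl-tRNA synthetases, which charge tRNAs with amino acids, had 11 of 20 members higher and 2 lower, 0 called, with MARS at 24.3, 23.2 and 22.6 FPKM in the Scramble libraries, 43.1, 42.6 and 43.6 FPKM after Si-KDM4C#1 and 42.4, 42.4 and 42.5 FPKM after Si-KDM4C#2. AARS, CARS and HARS were at 0.71, 0.78 and 0.64. With quantile normalization 7 of the 20 were higher and 4 lower.

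Genes induced by low oxygen through the hypoxia-inducible factor were the list with the lowest median among those of at least 15 tested genes. Of 19 members 13 were separated lower and 1 higher, 3 were called lower, and the median log2 fold change was -0.46. BNIP3, a mitophagy receptor, was at 68.7, 68.6 and 75.3 FPKM in the Scramble libraries, 22.6, 22.5 and 20.8 FPKM after Si-KDM4C#1 and 27.9, 33.7 and 32.9 FPKM after Si-KDM4C#2. NDRG1, a stress-response protein, was at 199.7, 174 and 188 FPKM in the Scramble libraries, 113, 100.7 and 92.0 FPKM after Si-KDM4C#1 and 81.6, 87.6 and 84.7 FPKM after Si-KDM4C#2. Both stood lower in all 6 knockdown libraries, as did EGLN3 above. NDRG1 lay at the fold change limit, with a log2 fold change of -1.004, and without Scramble replicate 1 it was -0.96. HILPDA, which coats lipid droplets, was at -0.98, and VEGFA, the vascular growth factor, at -0.20. The exception was ERO1A (0.76), an oxidase of the endoplasmic reticulum. Glycolysis genes, many of which are also known as hypoxia targets, had 14 of 24 members lower and 2 higher, with a median of -0.32. SLC2A1, the glucose transporter GLUT1, was at 57.4, 50.8 and 63.1 FPKM in the Scramble libraries, 28.6, 30.0 and 26.8 FPKM after Si-KDM4C#1 and 33.4, 31.0 and 34.1 FPKM after Si-KDM4C#2. PFKFB4, a kinase that makes an activator of glycolysis, was at -0.92, and HKDC1, a hexokinase of low level here, was the 1 member called (-1.01, and -0.90 with quantile normalization). LDHA (-0.75), PGK1 (-0.61), GAPDH (-0.51) and ENO1 (-0.44), picked after their values were seen, were separated lower as well, while PFKL, the liver phosphofructokinase, was separated higher (0.83).

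Chaperones and sensors of the unfolded protein response in the endoplasmic reticulum had 11 of 23 members lower and 4 higher. HSPA5, the chaperone BiP, was at 349, 371 and 351 FPKM in the Scramble libraries, 172, 169.8 and 161 FPKM after Si-KDM4C#1 and 206, 229 and 216 FPKM after Si-KDM4C#2, and HSP90B1, the chaperone GRP94, at 264, 284 and 285 FPKM in the Scramble libraries, 80.3, 73.6 and 67.2 FPKM after Si-KDM4C#1 and 192, 218 and 204 FPKM after Si-KDM4C#2. Both were lower after Si-KDM4C#1, by a called difference for HSP90B1 (1.46, adjusted p = 1.58e-07, limma-trend). EDEM1, which sorts misfolded glycoproteins for degradation, was at -0.72 and SDF2L1 at 0.88. Cytosolic heat shock and chaperonin genes had 12 of 29 members higher and 3 lower. The counts were 7 and 4 with quantile normalization, and 14 and 2 with the GC adjustment. HSPA1A (1.37) and HSPA1B (1.33), inducible HSP70 genes with nearly identical sequence, were called higher and are uncertain as single genes, while the small heat shock protein HSPB8 was called lower (-1.19).

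In mitosis and G2/M genes, 14 of 39 members (35.9%, against 20.7% of all genes) were separated higher and 0 lower, and 4 were called. AURKB, a kinase of chromosome segregation, was at 19.2, 18.6 and 16.8 FPKM in the Scramble libraries, 42.5, 41.0 and 44.1 FPKM after Si-KDM4C#1 and 48.8, 42.5 and 46.2 FPKM after Si-KDM4C#2. BIRC5, survivin, its partner in the chromosomal passenger complex, was at 16.0, 15.6 and 16.3 FPKM in the Scramble libraries, 32.3, 31.7 and 31.8 FPKM after Si-KDM4C#1 and 42.7, 42.9 and 42.5 FPKM after Si-KDM4C#2. CENPA, the centromere histone, had a log2 fold change of 1.18, and PKMYT1, which holds back entry into mitosis, of 1.35 (1.00 with the GC adjustment, just under the fold change limit). The other separated members, among them CDK1 (0.32) and CDC20 (0.64), were under the fold change limit. Over the list the siRNAs parted: the median was -0.08 for Si-KDM4C#1 and 0.49 for Si-KDM4C#2. A difference was called for 7 of the 39 members, against 6.91% of all genes tested. DNA replication and G1/S genes had 19 of 43 members higher and 5 lower. RRM2, the ribonucleotide reductase subunit of S phase, was the 1 called (1.01, and 0.88 with quantile normalization), CCNE1, cyclin E, was at 0.94 and CDC45, a helicase subunit, at 0.83. For double-strand break repair the counts were 13 of 35 higher and 3 lower. H2AFX, the histone whose phosphorylated form marks breaks, was at 46.3, 43.7 and 44.4 FPKM in the Scramble libraries, 72.0, 74.5 and 76.7 FPKM after Si-KDM4C#1 and 133, 115 and 119.8 FPKM after Si-KDM4C#2, while LIG4, the ligase of end joining, was at 5.15, 5.85 and 6.56 FPKM in the Scramble libraries, 1.87, 2.11 and 1.82 FPKM after Si-KDM4C#1 and 2.28, 2.62 and 2.62 FPKM after Si-KDM4C#2. With the GC adjustment the log2 fold changes were 0.72 for H2AFX and -0.87 for LIG4, below the fold change limit. Its partner XRCC4 was at 0.77.

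Genes of RNA and ribosome production were counted against the 20.7% of all genes that were separated higher. The spliceosome list had 23 of 38 members higher (60.5%) and 2 lower, and 0 called. PRPF19, a ubiquitin ligase of the spliceosome, was at 46.8, 46.2 and 47.5 FPKM in the Scramble libraries, 105, 106 and 113 FPKM after Si-KDM4C#1 and 72.5, 70.3 and 70.6 FPKM after Si-KDM4C#2. CD2BP2, SF3A2 and SNRPF were at 0.80, 0.80 and 0.71. With quantile normalization 13 of the 38 were higher and 4 lower. Ribosome biogenesis factors had 18 of 37 members higher and 2 lower, with NOP16 at 1.07 and RRP9 at 1.20 called (0.96 and 0.97 with the GC adjustment). Mitochondrial ribosomal proteins had 34 of 77 higher and 5 lower. MRPS34 was at 40.3, 36.2 and 36.3 FPKM in the Scramble libraries, 148, 143 and 147 FPKM after Si-KDM4C#1 and 122, 121 and 109 FPKM after Si-KDM4C#2, and MRPL4 (1.40) and MRPL12 (1.31, and 0.99 with the GC adjustment) were also called, while MRPL45 was called lower (-1.35). Nuclear-encoded respiratory chain subunits had 27 of 75 higher and 5 lower, with NDUFV2 at -1.04 (-0.89 with the GC adjustment). Of the 75, 21 were higher and 14 lower with quantile normalization, and 29 and 6 with the GC adjustment. Of the 13 protein-coding genes of the mitochondrial genome, 7 were lower and 0 higher as deposited, with a median of -0.33, and 6 were lower and 1 higher with the GC adjustment, with a median of -0.26. MT-CO1 was at -0.72. Quantile normalization, which left 1 of the 13 lower, sets the most abundant RNAs to nearly the same values in every library and so bears little on this direction.

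Signalling genes gave mixed counts. Immediate early genes and feedback regulators of the MAPK pathway had 12 of 32 members higher and 3 lower. FOSL1, a partner of JUN in AP-1, was at 4.07, 3.63 and 3.99 FPKM in the Scramble libraries, 21.7, 26.3 and 29.8 FPKM after Si-KDM4C#1 and 9.71, 8.65 and 8.11 FPKM after Si-KDM4C#2, and the siRNAs differed by -1.45 (adjusted p = 2.15e-06, limma-trend). MYC, the growth-promoting transcription factor, was at 106, 114 and 119 FPKM in the Scramble libraries, 333, 308 and 338 FPKM after Si-KDM4C#1 and 162, 167 and 168 FPKM after Si-KDM4C#2, with a log2 fold change of 1.04 (0.93 with the GC adjustment and 0.90 with quantile normalization). ETV4 and ETV5, ETS factors known to follow MAPK activity, were at 1.14 (0.90 with the GC adjustment, under the fold change limit) and 0.85. Of the BCL2 family, 6 of 17 were higher and 2 lower: BBC3 and BCL2L1, the antiapoptotic BCL-XL (2.98, 3.62 and 3.05 FPKM in the Scramble libraries, 11.2, 13.8 and 14.1 FPKM after Si-KDM4C#1 and 5.31, 5.72 and 6.17 FPKM after Si-KDM4C#2), were called higher, and BMF and BNIP3 lower. Of p53 targets, 3 of 23 (13%) were higher and 3 (13%) lower, shares under the 20.7% and 17.5% of all genes. Besides BBC3 and RRM2B, ZMAT3, an RNA-binding zinc finger protein, was called lower (57.8, 59.1 and 53.8 FPKM in the Scramble libraries, 26.4, 26.8 and 25.7 FPKM after Si-KDM4C#1 and 11.7, 13.0 and 12.5 FPKM after Si-KDM4C#2). The siRNAs had a called difference for 11 of the 23 members, against 6.91% of all genes tested. The median of the list was 0.64 for Si-KDM4C#1 and -0.25 for Si-KDM4C#2.

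Genes of immune display and response differed from list to list. Of 11 tested genes of MHC class I presentation, 4 (36.4%) were lower and 1 (9.09%) higher, against 17.5% and 20.7% of all genes. B2M, the light chain of class I molecules, was at 141, 153 and 158 FPKM in the Scramble libraries, 102, 102 and 105 FPKM after Si-KDM4C#1 and 80.1, 91.7 and 85.2 FPKM after Si-KDM4C#2. HLA-B (-0.48) shares sequence with other class I genes, and TAP2, the peptide transporter subunit, was the higher member (0.46). Of 21 NF-kB, chemokine and cytokine genes, 8 (38.1%) were lower and 1 (4.76%) higher. BIRC3, an inhibitor of apoptosis, was at -0.87 and NFKBIA, the inhibitor of NF-kB, at -0.51. Of 35 interferon-stimulated genes, 6 (17.1%) were lower, a share near the 17.5% of all genes, and 1 was higher. The siRNAs had a called difference for 20 of the 35, against 6.91% of all genes tested. The median of the list was -0.72 for Si-KDM4C#1 and 0.30 for Si-KDM4C#2. DDX60, an RNA helicase, was called lower (12.2, 12.8 and 12.4 FPKM in the Scramble libraries, 2.62, 3.48 and 2.66 FPKM after Si-KDM4C#1 and 7.58, 8.49 and 8.33 FPKM after Si-KDM4C#2, log2 fold change -1.17, and -0.99 with the GC adjustment). BST2, tetherin, was the higher member (0.74).

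Enzymes that write, erase or read histone lysine methylation, the class to which KDM4C belongs, had 16 of 45 members higher and 4 lower, and 0 called apart from KDM4C, which was counted in its own family. UHRF1, a reader that guides DNA methylation, was at 24.4, 22.1 and 21.8 FPKM in the Scramble libraries, 49.5, 53.6 and 51.8 FPKM after Si-KDM4C#1 and 36.6, 34.4 and 34.5 FPKM after Si-KDM4C#2. SUV39H2, an H3K9 methyltransferase, was at 4.72, 4.67 and 4.19 FPKM in the Scramble libraries, 8.09, 8.92 and 8.43 FPKM after Si-KDM4C#1 and 9.70, 8.71 and 9.86 FPKM after Si-KDM4C#2, and DOT1L, the H3K79 methyltransferase, had a log2 fold change of 0.85. SETD2, which places the third methyl group on H3K36, was at 11.6, 11.9 and 10.9 FPKM in the Scramble libraries, 3.98, 4.10 and 3.67 FPKM after Si-KDM4C#1 and 9.28, 9.39 and 9.83 FPKM after Si-KDM4C#2, lower mainly with Si-KDM4C#1 (difference 1.10, adjusted p = 1.59e-07, limma-trend). Of the KDM4 family, 3 members were tested, and KDM4C was the only one separated.

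Lipid, matrix and adhesion lists held single genes that stood out. PMVK, an enzyme of cholesterol synthesis, was called higher at 1.04 (0.84 with the GC adjustment), while STARD4, a sterol carrier, was at -0.92. SCD, the fatty acid desaturase, was lower chiefly after Si-KDM4C#2 (387, 383 and 377 FPKM in the Scramble libraries, 346, 361 and 330.3 FPKM after Si-KDM4C#1 and 150.4, 144 and 148 FPKM after Si-KDM4C#2). COL4A1, a basement membrane collagen, was at 2.02, 1.67 and 1.95 FPKM in the Scramble libraries, 7.47, 7.75 and 7.18 FPKM after Si-KDM4C#1 and 6.48, 6.12 and 6.08 FPKM after Si-KDM4C#2, and LAMB3, a laminin chain, at 43.1, 39.9 and 40.5 FPKM in the Scramble libraries, 22.8, 22.8 and 22.4 FPKM after Si-KDM4C#1 and 7.42, 9.92 and 8.59 FPKM after Si-KDM4C#2. PDGFRB, a receptor of mesenchymal cells, was at -0.85 and COL3A1 at 0.73. WNT6, a secreted Wnt ligand, was called lower (12.8, 10.1 and 11.9 FPKM in the Scramble libraries, 5.33, 3.78 and 4.64 FPKM after Si-KDM4C#1 and 5.46, 5.28 and 4.65 FPKM after Si-KDM4C#2), while AXIN1, a scaffold that destabilises beta-catenin, was called higher (1.25, and 0.96 with the GC adjustment). AKR1C1 (-1.53) and AKR1C3 (-1.36), reductases known as NRF2 targets, were called lower, and as close paralogs they are uncertain as single genes. SRXN1, another NRF2 target, was called higher (1.16, and 0.99 without Scramble replicate 3).

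Separation followed the base composition of the transcripts. With the tested genes in 5 equal groups by the GC content of the annotated transcript, 8.16% of the lowest group and 39.5% of the highest were separated higher, while 29% of the lowest and 7.81% of the highest were separated lower. The shares changed in order through the 3 groups between. The median GC content was 55.7% for separated higher genes (interquartile range 47.9 to 61.3), 44.4% for separated lower genes (40.2 to 50.9) and 49% for all tested. Both siRNAs showed it: the median log2 fold change went from -0.28 in the lowest to 0.24 in the highest group for Si-KDM4C#1, and from -0.10 to 0.30 for Si-KDM4C#2, against the same Scramble libraries. By chromosome, 34.3% of the 904 tested genes of chromosome 19 (median GC 59.3%) were separated higher and 6.53% lower, while for chromosome 13 (median GC 43.5%) the shares were 12% and 23.1%. Adjusting each library for GC content left 2230 of the 2978 higher and 1937 of the 2511 lower genes separated, and 182 of the 313 and 205 of the 281 called genes called. Whether GC content had a part in the values through library preparation was not tested.

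**Figure D5:**
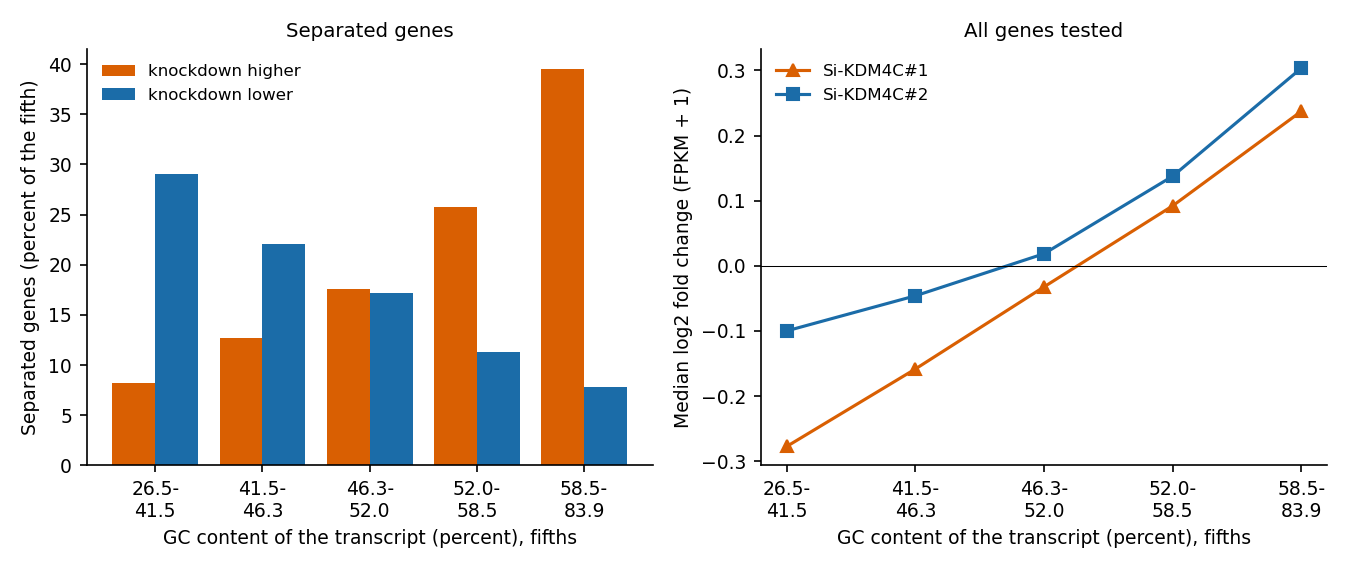
Left, share of genes separated higher (orange) or lower (blue) in 5 equal groups of the 14343 tested genes with a known GC content of the transcript, in percent of the genes of the group. Right, median log2 fold change of all tested genes in the same groups with Si-KDM4C#1 (triangles) and Si-KDM4C#2 (squares); the higher share rises from 8.16% to 39.5% and both lines climb with GC content.

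Length and gene type were compared in the same way. Separated lower genes had a median annotated transcript of 3511 bases, against 2483 for separated higher genes and 2500 for all tested. Among the called ones both medians, 2274 bases for lower and 2155 for higher genes, were under that of all tested. The median untranslated region of separated lower genes at the 3′ end was 1445 bases, against 757 and 977. Median levels over all libraries were 11.4 FPKM for higher, 5.71 FPKM for lower and 5.67 FPKM for all tested genes. Protein-coding genes made up 91.4% of the higher, 84.7% of the lower and 77.4% of all tested genes. Of 159 tested small nuclear RNA genes 1 was separated higher and 11 (6.92%) lower, and of 172 sense intronic RNAs 3 and 22 (12.8%). These shares are below the 20.7% and 17.5% of all genes in each direction. Calls do not require separation, and by them 17 of the 159 small nuclear RNA genes were lower and 0 higher. For the 172 sense intronic RNAs the calls were 5 lower and 0 higher, and among all genes 1.96% were called lower and 2.18% higher. Small nuclear RNA genes have many copies among which fragments could have been split.

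Promoters were matched for 9174 of the tested genes by gene identifier or symbol, in the same windows as those printed above. Separated higher genes had a median GC content of 67% and a median of 28.5 CpG, separated lower genes 64.7% and 25, and all tested 65.7% and 27. The GC box GGGCGGG, on either strand, lay in 60.9% of the separated higher, 51.1% of the separated lower and 55.5% of all tested windows, and in 32.9% of the 27305 promoters of the table. For the called genes among them the shares were 69.3% and 50%. The CCAAT box was found in 37.9%, 35.7% and 37% of the windows of higher, lower and all tested genes, and the TATA box TATAAA in 4.43%, 6.24% and 5.19%. The GC box is made of G and C alone, so its share cannot be told apart from GC content here, and a match is a description of letters, not of a bound factor.

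Matches to the seed of each siRNA were counted in annotated 3′ untranslated regions, with the guide strand taken as the reverse complement of the sequence that the authors give. For the seed of Si-KDM4C#1 a match of 7 bases was held by 15.3% of the 11055 tested genes with such a region, by 23.1% of separated lower and by 8.07% of separated higher genes. For Si-KDM4C#2 the shares were 7.73%, 12.3% and 4.37%. The regions of separated lower genes are longer, as given above, and a longer region holds any 7 bases more often. Among the separated lower genes that were called, with a median region of 1104 bases, the shares were 21.8% and 14.5%. For the separated higher genes that were called, with a median of 713 bases, they were 4.85% and 2.61%. The part of length or GC content in these shares was not tested. Among separated lower genes with a called difference between the siRNAs, 35.7% of the 84 with a larger fall with Si-KDM4C#1 had a match to its seed and 8.33% to that of Si-KDM4C#2. Of the 23 with a larger fall with Si-KDM4C#2, 13% had a match to the seed of Si-KDM4C#1 and 30.4% to that of Si-KDM4C#2. Their median regions measured 1324 and 1004 bases, against 1463 for separated lower genes without a called difference, where 22.7% and 12.3% had a match. These shares are descriptions, since an inexact or absent match says nothing of a single mRNA.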

How the data were processed

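The 9 libraries are those of the labels, 3 per group, of total RNA. The authors deposited FPKM values, 1 list of 32906 genes per library. The submitters' processing notes name FastQC 0.11.5, HISAT2 2.1.0, StringTie 1.3.3b, DESeq 1.28.0, featureCounts and GRCh38, without role or order, and the annotation release is not given in the sources used here. With exon lengths of GENCODE release 29, the values of 32080 genes (97.49%) became whole fragments within 0.05 in all libraries, which gave the depth (a floor of 3 fragments covers counting error only).

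Genes whose mean reached 1 FPKM in any group were compared on log2(FPKM + 1), which understates the change of low genes, in limma 3.58.1 (R 4.3.3; limma-trend, 3 groups in 1 fit, no covariates). The contrast was the mean of both siRNA groups minus Scramble, and a second contrast was Si-KDM4C#2 minus Si-KDM4C#1. Alternatives were quantile normalization, a pseudocount of 0.1, other filters and limits, a 2-group fit, the replicate block, limma voom, GC adjustment by lowess (span 0.3, 14343 genes) and leaving out each library. On simulated data for both siRNAs against Scramble, 198 of 199 genes changed 4-fold were recovered among 13630, with 4 false calls. The changed genes were drawn from genes with many fragments, with the same spread for every gene and no trend with GC content. The recovery therefore says nothing of low genes, of smaller changes or of values that follow GC content.

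The members, the 42 gene lists (36 pathways and 6 cell types) and the tests were chosen with earlier results of these data known. Genes were named by rule: KDM4C, the 15 called genes per direction with the widest gap, up to 4 separated genes per list with the largest change, the 3 nearest the limits of the rule, the 5 per direction that differ most and least between the siRNAs, and genes the paper measured, of which those under 1 FPKM are not described. Some genes that met this rule are not reported here. Promoters and coordinates are from RefSeq (GRCh38.p14) and GENCODE. Python 3.11.15 with pandas 2.3.3 and matplotlib 3.10.9 served for counts and plots.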

Additional observations from a re-analysis of the deposited data

Results flagged for a closer look

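Among the 6 knockdown libraries of the named genes, 4 values stood apart from the rest by Dixon's test, which chance alone flags in about 1 of 20 groups. The 6 values pool both siRNAs, and the test takes no account of a difference between them. HSPA1B was at 64.7 FPKM in Si-KDM4C#1 replicate 1, above the other knockdown libraries. AARS was at 107 FPKM in Si-KDM4C#1 replicate 3 and AP005899.1 at 0.458 FPKM in the same library, both below the others. RNU6-733P was at 0.564 FPKM in Si-KDM4C#2 replicate 3 and is listed at 0 in the other 5.

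The difference between the siRNAs (Si-KDM4C#2 minus Si-KDM4C#1, log2 scale, limma-trend, FDR under 0.05 and fold change over 2) was called for 24 of the named separated genes reported here. Where knockdown values were higher, Si-KDM4C#1 gave the larger rise for FOSL1 (-1.45), BCL2L1 (-1.06), SYP (-1.87), CTGF (-1.68), CYR61 (-2.45), BMP2 (-1.11), UNC13A (-2.11) and BBC3 (-2.24), and Si-KDM4C#2 for VCX3A (1.89). Where knockdown values were lower, Si-KDM4C#1 gave the larger fall for SLC12A3 (1.10), DDX60 (1.23), AKR1C3 (1.42), LGR4 (1.18), HSP90B1 (1.46), USP12 (1.85), SETD2 (1.10), NAP1L1 (2.19), ADIPOR1 (1.92) and EFR3A (2.34). Si-KDM4C#2 gave it for ZMAT3 (-1.03), LAMB3 (-1.30), KRT80 (-2.36), ITGAV (-1.23) and SCD (-1.22).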

How the results depend on the processing

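The number of called genes depended most on the scale and the limits, and the causes were not tested. Against 313 higher and 281 lower, a pseudocount of 0.1 gave 579 and 715, no fold change limit 4683 and 4418, a fold change tested against 2 gave 121 and 51, limma voom on the recovered fragments (16010 genes) 746 and 1063, and the GC adjustment 208 higher genes. With the pseudocount of 0.1, 315 separated genes differed between the siRNAs in place of 165. With 1 library left out at a time there were 300 to 365 higher and 267 to 325 lower calls, 3076 to 3498 and 2593 to 2949 separated genes, a rule with fewer values to meet, and 165 to 183 separated genes with a siRNA difference. Quantile normalization kept 2553 of the separated higher and 2253 of the separated lower genes.

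The replicate numbers did not pair the libraries: deviations from the group means of same-numbered libraries correlated at a mean of 0.016 over 9 pairs (-0.046 to 0.055), against -0.008 over 18 other pairs. With the replicate block, 313 genes were higher, 282 lower and 165 separated genes differed between the siRNAs, and none of the 197 named genes changed its call.

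Direction was reversed for genes at the edge of the rule or outside it: EGFL7, 0.011 with limma voom and, with 1 library left out, -0.053 to 0.065 (0.065, 0.039 and 0.019 without Scramble replicate 1, Si-KDM4C#1 replicate 2 or Si-KDM4C#2 replicate 3), SLC16A8, -0.076 with the GC adjustment, and ZEB1, 0.103 with the GC adjustment. Of the 197 named genes, 23 lost their call with the GC adjustment and 12 with quantile normalization, while 21 gained one with the pseudocount of 0.1.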

Other observations

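The remaining lists are given as counts of separated members. Over all genes tested, 20.7% were separated higher and 17.5% lower. Of 79 cytosolic ribosomal proteins, 22 were higher and 6 lower. With quantile normalization the counts were 15 and 13, and with the GC adjustment 16 and 4. RPL26 (1.13) and RPL11 (1.06), both known as binders of MDM2, were called higher. RPL11 was at 0.94 with quantile normalization and RPL26 at 0.91 without Scramble replicate 3. Of 34 proteasome subunits, 11 were higher and 4 lower, with PSMC3, an ATPase of the regulatory particle, at 0.73. Quantile normalization gave 7 higher and 7 lower subunits, and the GC adjustment 12 and 1. Of 41 autophagy and lysosome genes, 7 were higher and 6 lower. CTSB, the protease cathepsin B, was called higher (1.14), while ATP6V1A, a subunit of the proton pump of lysosomes, was at -0.75. Of 18 genes of the small RNA machinery, 5 were higher and 2 lower, with DROSHA, the nuclease that cuts primary microRNAs, at 0.71, and TNRC6A, a partner of Argonaute, at -0.48.

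Of 23 Notch genes, 4 were higher and 6 lower, with the feedback inhibitor NRARP called higher (1.01, and 0.63 with the GC adjustment). Of 19 genes of TGF-beta and BMP response, 5 were higher and 3 lower, with SKI, a corepressor of SMAD proteins, at 1.14 (0.93 with the GC adjustment). Of 30 Wnt genes, 6 were higher and 6 lower, and of 23 YAP and TEAD targets, 4 and 2. Lists of 24 cholesterol and 16 fatty acid synthesis genes had 7 and 5 members higher and 3 and 4 lower. Of 28 NRF2 and glutathione genes, 8 were higher and 5 lower, of 26 EMT and junction genes 3 and 6, and of 28 collagen, laminin and integrin genes 8 and 6. Of 8 tested keratins, KRT10 was called higher (1.04, and 0.97 with quantile normalization), and KRT8, KRT17 and KRT80 were separated lower. Of the other marker lists, 1 of 5 epithelial and 1 of 5 fibroblast genes were higher, and 2 and 1 lower. Of 4 neural and melanocyte genes 1 was higher and 1 lower, and of the 1 endothelial gene tested, EGFL7, the groups overlapped.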
